A study of Caenorhabditis elegans with 2 samples.

Results

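The 10 genes described here encode the Wnt ligands and the Frizzled and Ryk receptors of Caenorhabditis elegans. The ligands are egl-20, cwn-1, cwn-2, lin-44 and mom-2. The Frizzled receptors are lin-17, mig-1, mom-5 and cfz-2, and the Ryk receptor is lin-18. These genes were chosen by name, are 10 of 19973 nuclear protein-coding genes, and all 10 were found in the annotation. For each, summits of NHR-25 ChIP-seq regions were taken inside the gene and up to 5 kb upstream of its annotated 5′ end. NHR-25 is a nuclear hormone receptor of the SF-1/FTZ-F1 family. The study held 2 samples of a single group, biological replicates 2 and 1, each of whole L3 larvae of pooled sexes. Both came from strain OP33, which is unc-119(ed3) III and carries the transgene wgIs33, a stable C-terminal GFP-FLAG fusion of NHR-25. The replicates are labelled as biological. The promoter that drives the fusion is not given in the labels, and no untagged or untreated worms were analysed here.

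Wnt proteins are secreted glycoproteins that bind Frizzled and Ryk receptors on nearby cells. In this worm they orient asymmetric divisions of epidermal seam cells, guide migrating neuroblasts and pattern the vulva. NHR-25 is known to bind the β-catenins WRM-1 and SYS-1 and to act with Wnt signalling in the division of an epidermal cell of the tail. Whether NHR-25 also sits at the genes of the signals and their receptors can be asked of these lists. ChIP was done on whole worms, so binding in a few cells cannot be told apart from weaker binding in many.

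Few regions at these loci reached the list of reproducible peaks. Of the 5017 peaks that passed the authors' irreproducible discovery rate (IDR) threshold, a single one had its summit at a Wnt ligand or receptor gene, far upstream of mom-5. Thus 1 of 10 genes carried an IDR summit, against 29.9% of all nuclear protein-coding genes. Nearer to the start, from 2000 bp before the 5′ end to 200 bp past it (the promoter window), 0 of 10 carried one, against 18.4% of all genes. With each summit given to the nearest 5′ end alone the count was also 0 of 10, against 16.1%. The windows of the 10 genes ran from 7198 to 15667 bp, with a median of 8306 bp against 7027 bp over all genes, so they were not short. With 10 genes these counts are small, and a gene off the IDR list can still hold a lower region listed in both replicates. Per length, they held 0.106 IDR summits per 10 kb, against 0.544 over the windows of all genes. Among the 5017 regions of highest signal in each replicate alone, 1 of 10 genes again held a summit, in replicate 2 (29.4% of all genes) and in replicate 1 (29.3%), and in both that gene was mom-5.

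Below the IDR list the loci looked different. The pooled list, called on both replicates together, held 30000 regions and includes background regions by design. It placed 23 summits at 6 of the 10 genes (70.4% of all genes held at least 1), or 2.44 per 10 kb against 3.12 over all genes. In the promoter window 5 of 10 genes held a pooled summit, against 48.9% of all genes. Counting either replicate list as well, 7 of 10 genes had a listed region, against 85.9%. The genes with none in any list were cwn-1, cwn-2 and cfz-2. The replicates differed here: the 10 windows held 29 regions in replicate 2 and 13 in replicate 1, which is 3.07 and 1.38 per 10 kb, whereas all genes had 3.16 and 3.10.

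**Figure D1:**
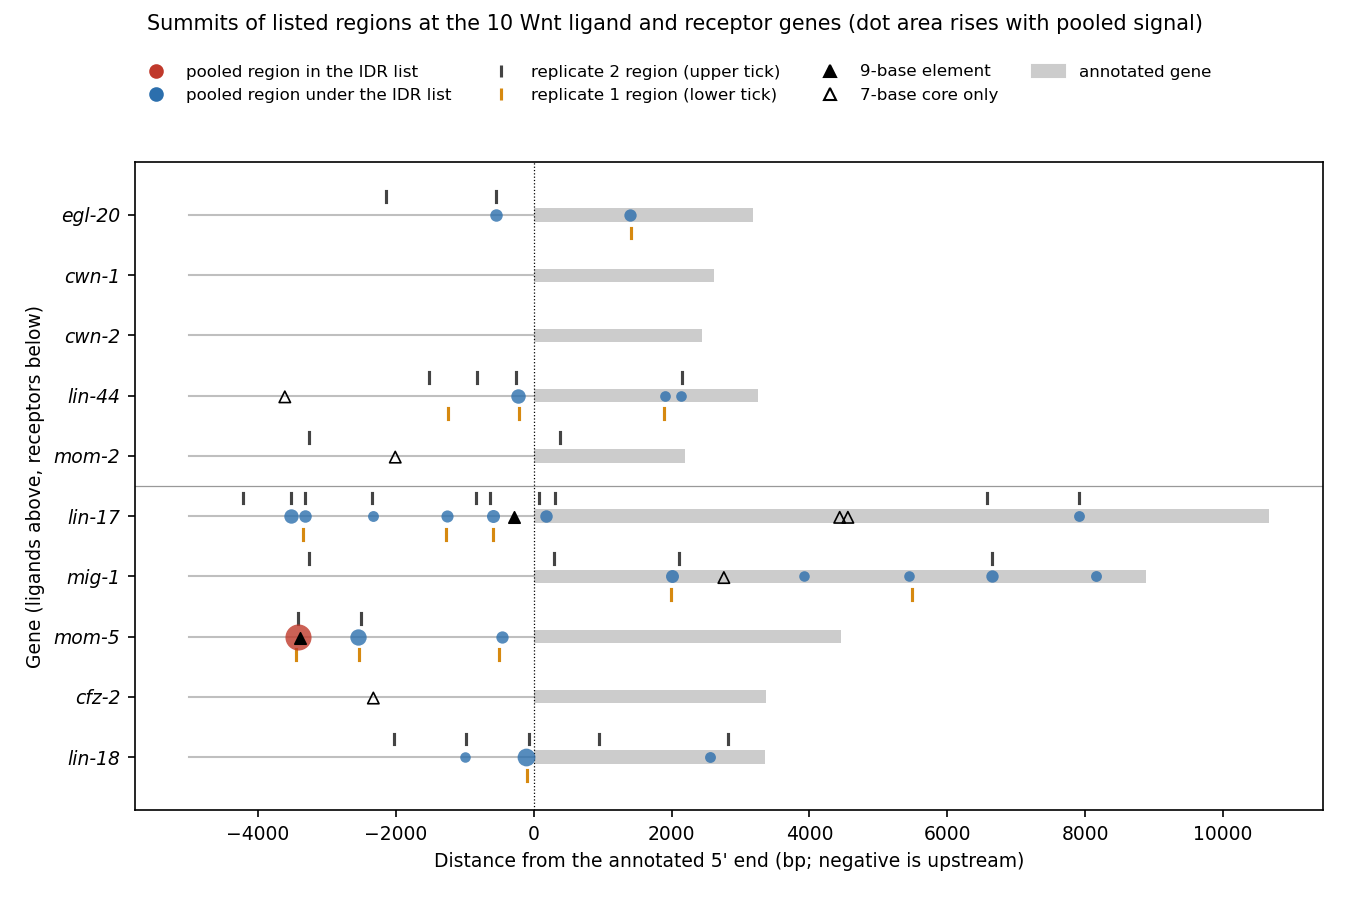
Positions of listed summits along each gene, as distance in bp from the annotated 5′ end, with upstream to the left and the annotated gene as a grey bar. Dots are pooled regions, with area rising with the authors' signal; ticks above and below each line are regions of replicate 2 and replicate 1, and triangles are matches to the receptor-family element or its core. The single IDR summit lies 3415 bp upstream of mom-5, and the lines of cwn-1, cwn-2 and cfz-2 carry no dot or tick.

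Sequences are shown at lin-18, whose region was the highest of the 10 genes after mom-5 and lay close to the gene's start, at egl-20, a ligand with a pooled region before its start, and at the cores found upstream of mom-2 and cfz-2. All come from the RefSeq WBcel235 genome, the same assembly as ce11. Each pooled summit is given with 50 bp to either side, and each core with 12 bp. Capitals mark the core of the element bound by this receptor family, searched as CAAGGTC or CAAGGCC on both strands; a line all in lower case holds none.

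lin-18, 105 bp upstream of the 5′ end, chrX:3958397-3958497, plus strand: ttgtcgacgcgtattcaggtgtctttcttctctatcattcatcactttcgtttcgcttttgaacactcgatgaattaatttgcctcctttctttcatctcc
egl-20, 546 bp upstream of the 5′ end, chrIV:9816028-9816128, plus strand: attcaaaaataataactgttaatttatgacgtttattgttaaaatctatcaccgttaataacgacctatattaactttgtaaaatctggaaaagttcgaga
mom-2, core 2008 bp upstream of the 5′ end, chrV:8353965-8353995, minus strand: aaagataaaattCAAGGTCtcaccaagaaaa
cfz-2, core 2326 bp upstream of the 5′ end, chrV:3447188-3447218, minus strand: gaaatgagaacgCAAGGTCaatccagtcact

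Among the ligands, regions were few and low, and none reached the IDR list. lin-44 encodes the Wnt of the tail tip that orients the asymmetric divisions of tail cells. Its highest pooled region, on chromosome I from 4125654 to 4126003, had its summit 227 bp upstream of the 5′ end, with a signal of 22.7. That region ranked 9352 of 30000, and its −log10 q-value was 0.981, under the lowest of the IDR list, 2.82. Both replicates listed it, with signals of 11.6 in replicate 2 and 10.97 in replicate 1, a log2 ratio of 0.08. The other pooled summits of lin-44 lay in an intron (9.01) and a coding exon (8.84), each matched in 1 replicate.

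egl-20 encodes the Wnt made in the posterior body that guides the Q neuroblast descendants. It had a pooled region of signal 15.1 with its summit 546 bp upstream, on IV from 9815903 to 9816252, and another of 14.4 in a coding exon, from 9813963 to 9814312. Their −log10 q-values were 0.339 and 0.294, under the lowest of the IDR list, 2.82. The upstream region was matched within 100 bp in replicate 2 (7.25) and not in replicate 1, and the exonic region in replicate 1 (11.98) and not in replicate 2. The replicates therefore listed no region in common at egl-20. A further region of replicate 2, of signal 7.66, lay 2143 bp upstream, inside the 3′ UTR of the neighbouring ATPase gene catp-6.

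mom-2 encodes the Wnt that induces endoderm in the embryo and acts in vulval patterning. It had no pooled region and none in replicate 1. Replicate 2 listed 2, of signals 4.90 and 5.03, where the lowest of that list was 4.17. They lay in a coding exon of the neighbouring gene srsx-22 and in an intron of mom-2. The nearest IDR summit stood on the far side of mom-2, 3342 bp downstream of its 5′ end and outside the rule, with a signal of 46.1. It was 167 bp from the 5′ end of mpdu-1, a homologue of a gene of dolichol-linked sugar use, on the opposite strand.

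cwn-1 and cwn-2, Wnts with overlapping roles in cell migration and polarity, had no region in the pooled list or either replicate list. The nearest pooled summit was 6597 bp downstream of the 5′ end of cwn-1, on chromosome II, with a signal of 13.8. For cwn-2, on IV, it was 18070 bp downstream, at an IDR peak of signal 104.5 that lay 251 bp from the 5′ end of ndc-80. An unlisted window says only that the list took in no region there, not that NHR-25 was absent. The pooled list ended at a signal of 8.33.

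**Figure D2:**
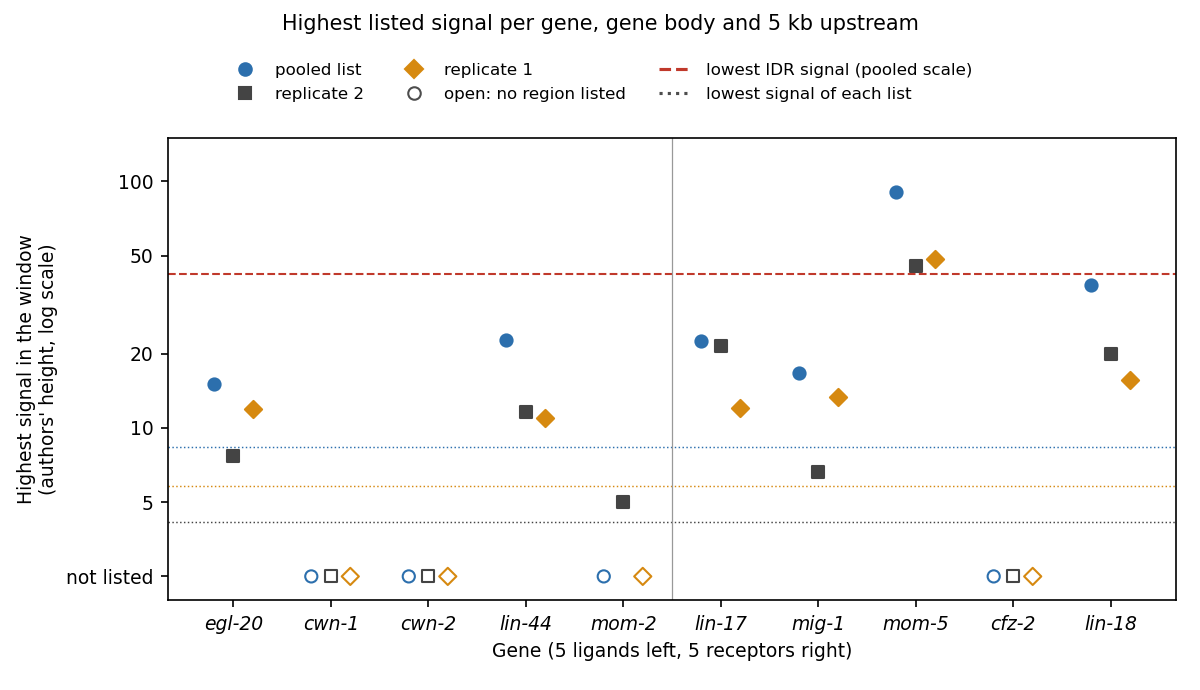
Highest listed signal per gene in the gene body and 5 kb upstream, on a log axis, for the pooled list, replicate 2 and replicate 1. Open symbols mark genes with no region in that list, the dashed line is the lowest IDR signal, 42.2 on the pooled scale, and dotted lines are the lowest signal of each list. Of the 10 genes mom-5 is above the dashed line, and lin-18 at 38.0 is next.

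The receptors held most of the listed regions: 18 of the 23 pooled summits, at 4 of the 5 genes, against 5 at 2 of the 5 ligands. Of all genes, 70.4% held at least 1 pooled summit. Per 10 kb the receptors held 3.23 pooled summits and the ligands 1.29, where all genes held 3.12. In this list the receptors were near the density over all genes. In replicate 2 the receptors held 3.77 and the ligands 2.07, against 3.16 over all genes. In replicate 1 both were below the 3.10 of all genes, with 1.61 for receptors and 1.03 for ligands. The gap between receptors and ligands was smaller in each single list than in the pooled list. No test between them was made. mom-5, a Frizzled that acts with mom-2 in the embryo, carried the IDR peak, on I from 9961984 to 9962333. Its summit, at 9962159, lay in intergenic sequence 3415 bp upstream of mom-5, and its pooled signal was 90.7 (rank 1877), with 45.5 for replicate 2 (rank 2110) and 48.6 for replicate 1 (rank 1561). The log2 ratio of replicate 2 to replicate 1 was −0.10, against a median of 0.11 and an SD of 0.73 over the 4688 IDR peaks matched in both. The summit stood much closer to algn-10, a homologue of an N-glycan glucosyltransferase gene on the opposite strand, 182 bp upstream of that gene's 5′ end. The lists do not tell which of the 2 genes, if either, the peak serves.

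A second pooled region of mom-5, of signal 31.1, rank 6804 and −log10 q 1.79, lay 2547 bp upstream. Its nearest 5′ end was that of algn-10, at 1050 bp. The region had 21.6 in replicate 2, where it ranked 5290, and 7.77 in replicate 1, where it ranked 20217, a log2 ratio of 1.48. The region nearest to the start of mom-5, 460 bp upstream, had a pooled signal of 14.3 and was matched in replicate 1 (8.68) but not in replicate 2. In the pooled list the 3 heights at mom-5 were lower the nearer they lay to its 5′ end. They were thus also lower the farther they lay from that of algn-10. In replicate 1 the region nearest to mom-5 was slightly above the middle one.

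lin-18, the Ryk receptor that acts beside LIN-17 in the orientation of vulval cells, came closest to the IDR list without entering it. Its pooled region, on X from 3958272 to 3958621 with its summit at 3958447, stood 105 bp upstream of the 5′ end, which is also the nearest 5′ end of any protein-coding gene. The signal was 38.0, rank 5540, whereas the IDR list ended at rank 5017 with 42.20 and the next pooled region had 42.19. The lin-18 region had a pooled −log10 q of 2.43. It measured 19.9 in replicate 2 (rank 5804, −log10 q 3.37) and 15.7 in replicate 1 (rank 7615, −log10 q 0.966), a log2 ratio of 0.34. Both summits were within 100 bp of the pooled one. The other pooled regions of lin-18 were near the lower end of the list, at 8.47 and 9.59. The next protein-coding gene upstream of lin-18 lies 15238 bp away.

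lin-17, the Frizzled of the tail cells and the vulva, has the longest window of the 10 genes and held 7 pooled regions, the most of any. Their −log10 q-values ran from 0.056 to 0.951, all under the lowest of the IDR list. The region of highest signal, 22.4, was 3517 bp upstream and inside the non-coding gene Y71F9B.21. Replicate 2 gave it 21.5, rank 5311, and replicate 1 listed no summit within 100 bp. Nearer to the gene, a region 590 bp upstream had a pooled signal of 16.9, with 6.74 for replicate 2 and 6.65 for replicate 1. A region in the 5′ UTR had 15.01 with no match within 100 bp in either replicate, although replicate 2 listed a region of 10.8 in the same UTR. The highest region of replicate 2 within 1000 bp upstream, 831 bp from the 5′ end, had 12.7 (rank 9037, −log10 q 1.66) and was matched to no pooled region. Replicate 1 listed no region in the 5′ UTR. A region 3315 bp upstream had a pooled signal of 15.2, with 9.96 for replicate 2 and 6.53 for replicate 1, a log2 ratio of 0.61. The remaining 3 had 13.8, 9.61 and 9.42, each matched in 1 replicate.

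mig-1, a Frizzled that acts in Q neuroblast migration, had 5 pooled regions, all inside the gene: 4 in introns and 1 in a coding exon. Their −log10 q-values ran from 0.034 to 0.456. The region of highest signal, 16.7, lay 2006 bp inside the 5′ end in an intron. It was matched in replicate 1 (13.3) but not in replicate 2. The nearest summit of replicate 2, of signal 4.35, lay 2113 bp inside the 5′ end, just beyond the 100 bp limit. The next pooled region, 14.6, was matched in replicate 2 (6.62) but not in replicate 1. The other 3 were between 8.59 and 9.60. No pooled region lay upstream of mig-1, where 6235 bp separate it from the next protein-coding gene, and the 1 region listed there, in replicate 2, had 6.30.

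cfz-2, the fourth Frizzled, known from neuronal migration, had no region in any list. Of the 10 genes it has the longest stretch to the next protein-coding gene upstream, 15341 bp. The nearest pooled summit was 12889 bp upstream, with a signal of 9.13, and the nearest IDR summit 53682 bp downstream of the 5′ end. For the other genes the nearest IDR summit was between 3342 and 18070 bp from the 5′ end.

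Of the 22 pooled regions at these genes that were under the IDR list, 12 were matched within 100 bp in replicate 2 (54.5%, exact 95% interval 32.2 to 75.6) and 11 in replicate 1 (interval 28.2 to 71.8%). In all, 5 were matched in both (22.7%, 7.82 to 45.4) and 4 in neither (18.2%, 5.19 to 40.3). Over all 24983 pooled regions under the IDR list the shares were 49.2%, 57.8%, 24.0% and 17.0%, each within the interval of the Wnt regions. Over the IDR peaks 93.4% were matched in both. The 5 regions seen in both replicates were at lin-44, lin-17 (2 regions), mom-5 and lin-18. Their log2 ratios of replicate 2 to replicate 1 were all above 0, from 0.02 to 1.48 with a median of 0.34, against a median of −0.24 and an SD of 0.82 over 6002 such regions, of which 39.0% were above 0. Intervals cover counting of regions only, and regions are not independent of each other.

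Where the pooled regions lay was mixed. Of 23, 12 were upstream, 6 in introns, 4 in coding exons and 1 in a 5′ UTR, and 6 of the 12 were within 1000 bp of the 5′ end. For 5 of 23 the nearest 5′ end belonged to another protein-coding gene: algn-10, F32B5.1 or dnj-30. In signal, 18 of 23 were under 20, 2 from 20 to under 30, 2 from 30 to under 50, and the mom-5 peak above that.

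**Figure D3:**
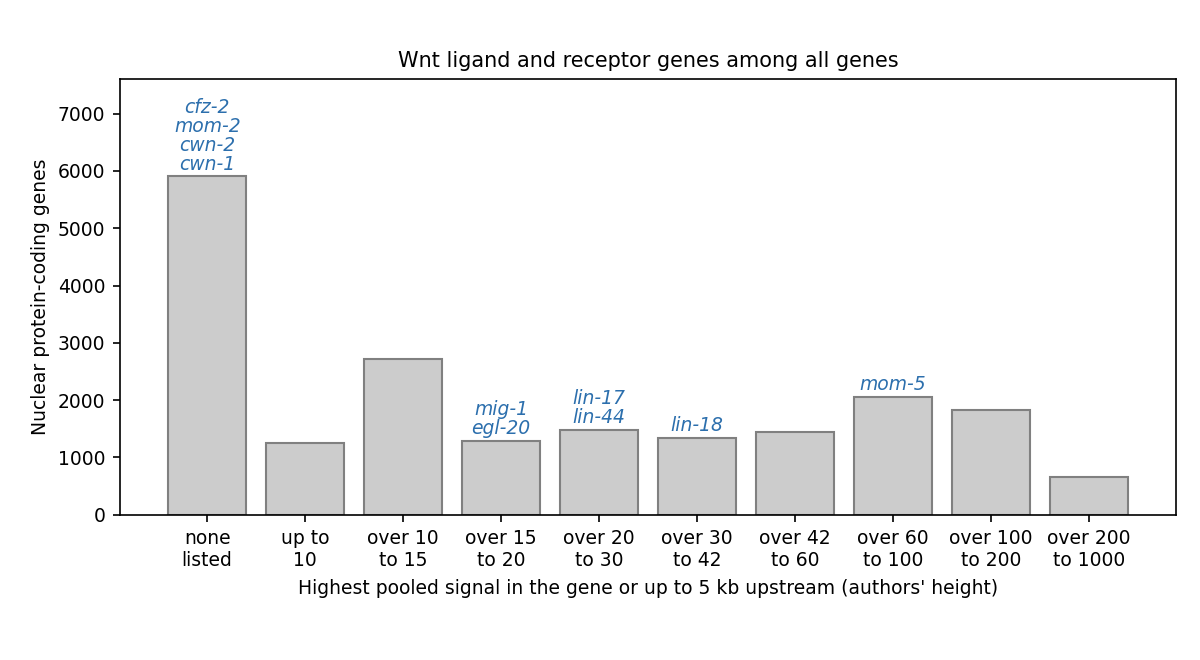
Number of nuclear protein-coding genes by the highest pooled signal in the gene or up to 5 kb upstream, with the 10 Wnt genes written above their class. Genes with no listed region form the first bar (29.6% of all genes), and the IDR list begins at 42.2; mom-5 is in the class over 60 to 100, and the other 9 are at or under 42.

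Ordered by their highest pooled signal, the genes ran from mom-5 (90.7) through lin-18 (38.0), lin-44 (22.7), lin-17 (22.4), mig-1 (16.7) and egl-20 (15.1) to the 4 with none. The steps between neighbours in this order were 1.25, 0.74, 0.02, 0.43 and 0.15 on the log2 scale of the pooled signal. A pooled height has no error of its own in the files, so these steps were not tested. Both replicates placed mom-5 above lin-18 and lin-18 above lin-44 by the regions named. The rest of the order differed between lists. By the highest signal in replicate 2, lin-17 (21.5) stood above lin-18 (19.9). In replicate 1 lin-44 (10.97) was the lowest of the listed genes, under mig-1 (13.3), lin-17 (12.1) and egl-20 (11.98). The order counts every summit in a window, also those nearer to another gene. The mom-5 value comes from the summit 182 bp from algn-10, and that of lin-17 from a summit nearest to F32B5.1. Of the summits nearest to the gene's own 5′ end, the highest was 14.3 at mom-5, under egl-20 (15.1), and 16.9 at lin-17. By pooled signal in the window mom-5 ranked 2869 among all genes, above 85.6% of them, and lin-18 ranked 6380, above 68.1%. lin-44 and lin-17 were above 58.3% and 58.0%, mig-1 above 51.96% and egl-20 above 49.5%. With unlisted genes set at 0, the median over the 10 was 15.9, against 15.4 over all genes. Among listed genes alone it was 22.6 for the Wnt genes and 32.6 for all genes, of which 29.6% were unlisted.

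The 7-base core occurred 8 times in the 10 windows, or 0.847 per 10 kb against 0.784 over the windows of all genes. It was present at 6 of 10 genes, against 43.7% of all genes. The 9-base element, in which a C or T precedes the core and an A or G follows it, occurred at 2 of 10 genes, mom-5 and lin-17, against 17.0% of all genes. At mom-5 it lay 32 bp from the IDR summit, and 29 and 72 bp from the summits of replicate 2 and replicate 1. Of all IDR peaks 3.45% hold the element within 100 bp of the summit, and 0.638% do when the same window is shifted by 1000 bp, in each direction. At lin-17 the element lay 281 bp upstream of the 5′ end and 309 bp from the nearest summit of any list. The remaining 6 cores, among them those shown above for mom-2 and cfz-2, were 646 bp or more from any listed summit. The lin-18, lin-44 and egl-20 summits had no core within 100 bp, and neither the lin-18 nor the egl-20 window holds one anywhere. Among the pooled regions under the IDR list 2.05% hold the core within 100 bp. A match is a run of letters and not a site of binding.

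Other genes of the Wnt pathway, read from a list of 30, carried IDR summits more often by count. In the gene or up to 5 kb upstream, 17 of 30 did, against 29.9% of all genes. In the promoter window 12 of 30 did, against 18.4%. With each summit given to the nearest 5′ end 10 of 30 did, against 16.1%. With unlisted genes set at 0, the median of the highest pooled signal was 54.7 over these 30 genes. It was 15.9 over the 10 genes and 15.4 over all genes. By step, 1 of 5 receptors and 0 of 5 ligands had an IDR summit, as did 0 of 5 further receptors and membrane proteins, 5 of 9 genes of Wnt secretion and extracellular regulation, 6 of 8 of the Dishevelled and destruction complex list and 6 of 8 of the list of β-catenins, TCF and the asymmetry pathway. Those counts by step use the gene and 5 kb upstream, where 29.9% of all genes held an IDR summit. With each summit given to the nearest 5′ end, 2 of 9 genes of Wnt secretion and extracellular regulation had one, against 16.1% of all genes. So did 4 of 8 of the Dishevelled list and 4 of 8 of the β-catenin list, and no gene of the other lists. The windows of the 30 genes summed to 336010 bp, against 94430 bp for the 10 genes. All are counts beside the share of all genes, with no test between lists. The lists were chosen with earlier results of these data known, so the counts describe them and cannot support a contrast.

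Among the further membrane proteins cam-1, a Ror-family Wnt receptor, reached 13.1 and the planar polarity gene vang-1 reached 41.3, just under the IDR list. In secretion, the strongest promoter peaks were at the sorting nexin gene snx-3 (57.9, 311 bp upstream) and the retromer gene vps-35 (57.2, 164 bp upstream), while mig-14, the Wntless homologue, and vps-26 had no IDR summit. Within the receiving cell, the strongest promoter peaks were at the Dishevelled genes. That of dsh-2 had 288.6 pooled, 150.6 in replicate 2 and 137.2 in replicate 1. That of mig-5 had 218.5 pooled, 88.98 in replicate 2 and 130.9 in replicate 1. Each of these was above the highest value of the ligands and receptors in the same list. dsh-1 and axl-1, an Axin-like gene, had no IDR summit. sys-1, the β-catenin of asymmetric division, had a promoter peak of 125.1 (78.4 in replicate 2 and 43.6 in replicate 1), and hmp-2, the β-catenin of cell junctions, one of 61.4 whose nearest 5′ end was that of K05C4.7. The TCF gene pop-1 and the kinase gene mom-4 had none.

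**Figure D4:**
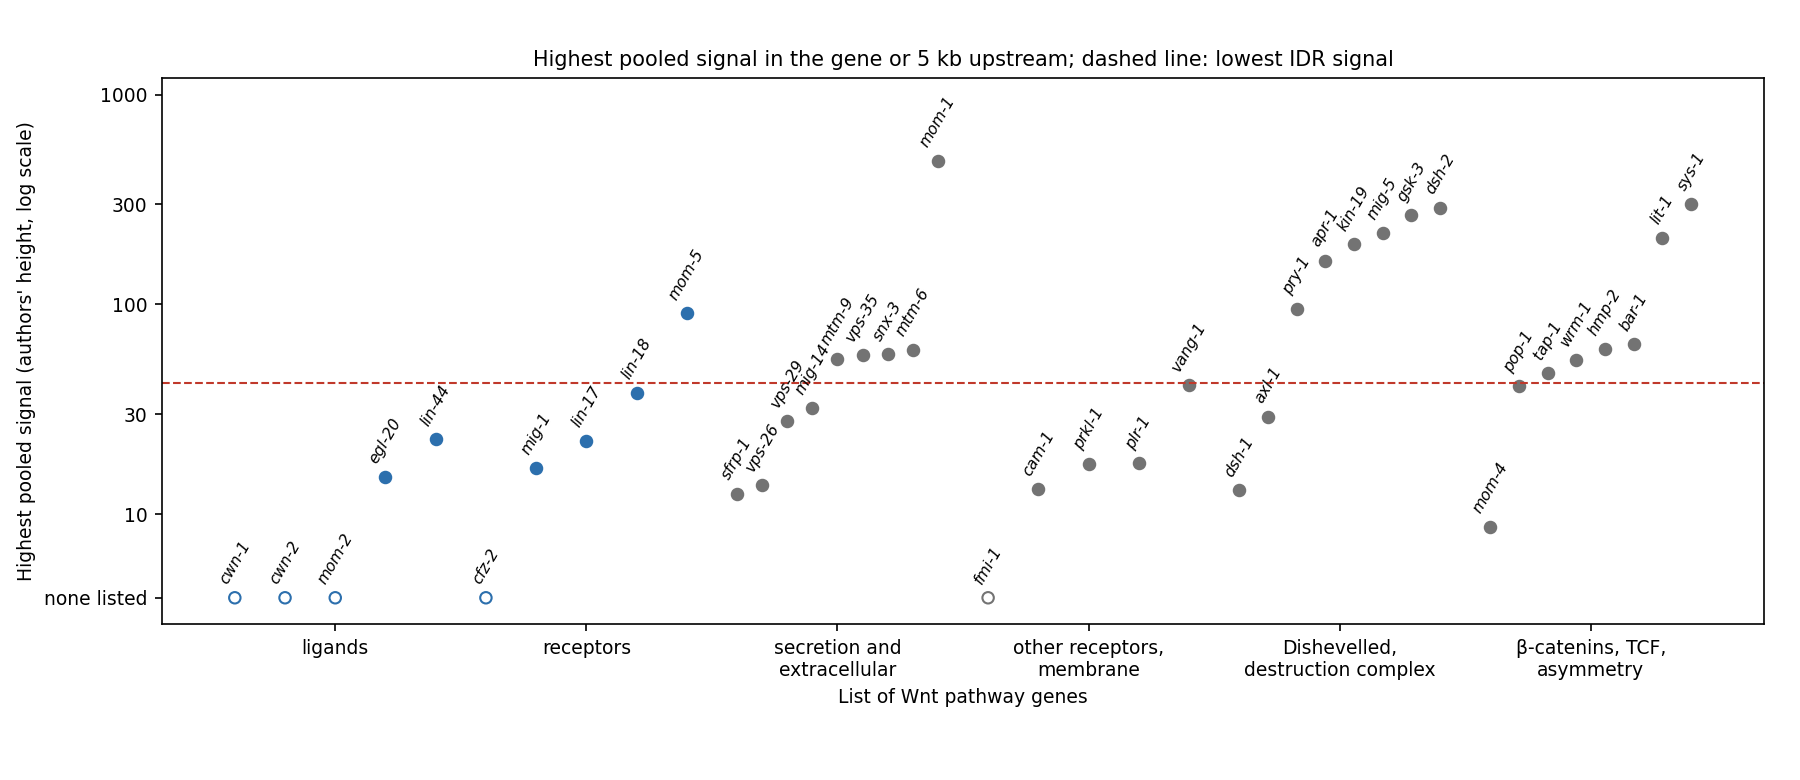
Highest pooled signal in the gene or up to 5 kb upstream for the 5 ligands and 5 receptors (blue) and 30 other Wnt pathway genes in 4 lists (grey), on a log axis. Open circles mark genes with no pooled region, and the dashed line is the lowest IDR signal, 42.2. Of the 15 ligands, receptors and further membrane proteins mom-5 is above the line, and fmi-1 is unlisted like cwn-1, cwn-2, mom-2 and cfz-2.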

How the data were processed

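NHR-25 ChIP-seq regions of 2 samples were used on ce11, with antibody labelled nhr-25 and chromatin sonicated, per the labels. No source used here names the aligner or the peak caller. According to the index text the authors deposited, peaks were called for each replicate against a control alignment and once for the replicates pooled, and the IDR list rests on all of them. The authors deposited a signal per region on an unstated scale, a −log10 q-value and a summit offset. Signals rank regions within a list. Read totals were not used, so depth is unknown and no enrichment over input was computed. The IDR peaks were exactly the 5017 highest pooled regions. No interval was identical between the replicate lists. In the windows used here the regions of each replicate had their own width, so none there could be identical.

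Genes came from Ensembl release 115 (WBcel235) and sequence from RefSeq WBcel235; ce10 lists were not used. Coordinates are 1-based. Summits were assigned to windows in Python 3.11.15 with NumPy 2.4.6, 95% exact binomial intervals came from SciPy 1.17.1, and figures from Matplotlib 3.10.9. A pooled region was matched to a replicate where their summits lay within 100 bp. Window counts, matching and the element search were tested on simulated data. No test between groups was made, since there is 1 group. Genes and lists were chosen with earlier results of these data known. Named were all 10 genes, the nearest gene of each IDR summit in their windows and, per pathway list, the 2 strongest promoter peaks and the first 2 genes without an IDR summit. catp-6, srsx-22, mpdu-1, ndc-80, fmi-1, F32B5.1, dnj-30, C08D8.1 and Y71F9B.21 were named after their values were seen. Annotated 5′ ends may lie downstream of true starts, because many worm transcripts are trans-spliced.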

Additional observations from a re-analysis of the deposited data

How the results depend on the processing

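The mom-5 summit alone decided the count of 1 gene and 1 IDR summit. With 2 kb or 1 kb upstream, or with summits given to the nearest 5′ end alone, both counts and the density were 0. They were 1 gene and 1 summit with the upstream reach ended at the next protein-coding gene, where the density was 0.124 per 10 kb. Counts were also 1 and 1, with a density of 0.106, for any overlap of the interval and in the stronger part of the IDR list. The same held without replicate 2 and without replicate 1 (1 to 1, density 0.106 to 0.106). With all pooled regions the values were 6 genes, 23 summits and 2.44 per 10 kb, and 5 genes in the promoter window, by construction of the longer list. A reach of 10 kb, chosen after seeing the data, gave 2 genes and 3 summits, the added ones at mom-2 and inside C08D8.1. The promoter count was 0 with 1000 or 500 bp, all transcript starts, the stronger part of the IDR list and each replicate left out (0 to 0). The mom-5 summit was matched in both replicates, also among their top peaks, at 50 and 200 bp, and held the core and element in each window searched. Also chosen after seeing the data, the pooled regions numbered 18 with 2 kb, and 34.8% of them were matched in both replicates at 200 bp, against 26.1% at 100 bp. No paired analysis was possible because there is 1 group. Depth limits what an unlisted window can show, and read totals were not used.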

Other observations

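Outside the windows used above, 2 IDR summits lay between 5 and 10 kb upstream of mom-2, at 6910 and 6711 bp, with signals of 144.4 and 52.2. For both the nearest 5′ end was that of srsx-22, at 2593 and 2394 bp. Both lay inside the protein-coding gene C08D8.1, the stronger in an intron and the other in a coding exon. In the 5 kb past the 3′ end of each of the 10 genes, 1 IDR summit was found, the one beside mpdu-1.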
